A study of Mus musculus with 10 samples.

Results

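The 37 genes described here build, sense and move cholesterol and fatty acids. They were taken by symbol from the table of read counts by their known roles, with earlier results of these data known, and make up 37 of its 26146 genes. All 37 passed the filter on low counts, which kept 14165 genes for testing. By role, 18 are enzymes of sterol synthesis, 5 are the SREBP transcription factors and the proteins that control them, 9 synthesize, elongate or desaturate fatty acids, and 5 take up lipoproteins or export, esterify or regulate the uptake of sterols.

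RNA had been sequenced from hematopoietic stem cells (HSCs), sorted from bone marrow as LSK CD48-CD150+ cells, the cells that can rebuild the whole blood system. Each library came from a different mouse, aged 8 to 12 weeks. *Cited2* CTL mice (n = 5) carried floxed *Cited2* alleles (*Cited2* fl/fl) and no Cre. *Cited2* CKO mice (n = 5) carried the same alleles together with *Vav-iCre*, a Cre recombinase active in blood cells from fetal life onwards, which deletes *Cited2*, the gene of a transcriptional co-regulator, as the blood system develops. The libraries held 3058690 to 4548795 counted reads in the *Cited2* CTL group and 3500215 to 4315029 in the *Cited2* CKO group. The deleted gene was measured at 101 to 222 CPM (counts scaled to a common normalized library total) in *Cited2* CTL and at 3.80 to 8.30 CPM in *Cited2* CKO libraries 1, 2, 4 and 5. The library labelled *Cited2* CKO 3 held *Cited2* at 120 CPM, within the control range, and the main counts are given below with and without it. Genes that mark HSCs were present in all libraries, with *Kit* at 580 ± 62.4 CPM and *Procr* at 105 ± 12.9 CPM in *Cited2* CTL (SD, n = 5). The defining markers of fat cells (*Adipoq*, *Plin1*) and T cells (*Cd3e*, *Cd3d*) averaged below 1 CPM in both genotypes. *Cd48*, whose protein the sort excludes, was the gene among the marker lists that passed the test in edgeR, at 21.6 ± 5.53 CPM in controls and 49.0 ± 9.15 CPM in *Cited2* CKO (log2 fold change 1.18, SE 0.20, adjusted p = 0.0264 by edgeR's quasi-likelihood F test, with p-values adjusted over all tested genes after Benjamini and Hochberg). The part of this difference in the results below was not tested.

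Cells make cholesterol from acetyl-CoA through mevalonate, isoprenoid units, squalene and lanosterol. Supply is matched to need by SREBP-2, encoded by *Srebf2*, a membrane-bound precursor that the escort protein SCAP carries from the endoplasmic reticulum to the Golgi, where proteases release the active factor. INSIG proteins hold SCAP back when sterols are plentiful. SREBP-1, encoded by *Srebf1*, drives fatty acid synthesis, and an excess of sterols is pumped out by ABCA1 and ABCG1 or stored as esters made by SOAT1. SREBP proteins act together with NF-Y, a factor that binds the CCAAT box, at promoters of the pathway.

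The promoters of 5 members are shown because they carry the CCAAT box found in most sterol enzyme promoters and, in *Hmgcs1*, the sterol regulatory element. *Fasn* is included from the fatty acid genes, where the box was less frequent. They are RefSeq sequences on GRCm38.p6, read 5′ to 3′ on the strand of the gene and ending at the base before the RefSeq start. Capitals mark the CCAAT box, written ATTGG where it lies on the other strand, and in *Hmgcs1* also the sterol regulatory element.
Hmgcs1 (chr13:119690211-119690350, plus strand): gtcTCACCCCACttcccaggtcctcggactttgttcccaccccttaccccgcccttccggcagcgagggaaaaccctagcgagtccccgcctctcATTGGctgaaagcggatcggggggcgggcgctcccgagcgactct
Mvk (chr5:114444139-114444268, plus strand): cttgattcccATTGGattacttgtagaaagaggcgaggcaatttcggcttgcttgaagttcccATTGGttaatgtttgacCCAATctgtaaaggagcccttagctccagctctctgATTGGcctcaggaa
Mvd (chr8:122443423-122443492, minus strand): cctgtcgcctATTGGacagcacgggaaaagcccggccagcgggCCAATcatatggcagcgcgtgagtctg
Sc5d (chr9:42264301-42264350, minus strand): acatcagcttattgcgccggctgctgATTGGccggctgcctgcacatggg
Fasn (chr11:120824548-120824647, minus strand): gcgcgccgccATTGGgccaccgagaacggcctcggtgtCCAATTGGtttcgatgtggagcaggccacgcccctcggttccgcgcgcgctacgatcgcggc

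*Hmgcs1*, the synthase that makes HMG-CoA, is thus shown with a sterol regulatory element and a CCAAT box, *Mvk* with 4 CCAAT boxes, *Mvd* with 2 and *Sc5d* with 1. In *Fasn*, the fatty acid synthase, 2 of the 3 boxes overlap on opposite strands. Both motifs were searched on both strands in the 250 bases before each RefSeq start, and 30 of the 37 members had a promoter entry, 6 of them more than 1. CCAAT was found in 14 of 15 sterol enzymes (93.3%), 4 of 5 SREBP genes (80%), 2 of 6 fatty acid genes (33.3%) and 3 of 4 transport genes (75%). Over all members the share was 76.7%, beside 40.6% of the 10966 tested genes with an entry. The sterol regulatory element, searched as TCACNCCAC, was found in 1 of 30 members (3.33%), *Hmgcs1*, and in 1.19% of tested genes. A match to these letters is a description of the promoter and does not show that the factor binds there. A missing match does not show that a promoter lacks a site, since only these spellings in 250 bases were searched.

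Sterol and fatty acid genes were expressed in HSCs of both genotypes. Compared per kilobase of gene length, 25 of the 37 members and 12 of the 18 sterol enzymes lay above the median tested gene, which stood at 15.7 CPM per kilobase in *Cited2* CTL HSCs. *Srebf2* had the highest level, 79.1 ± 3.62 CPM per kilobase (SD, n = 5). *Elovl5*, an elongase of polyunsaturated fatty acids, followed at 61.9 ± 5.73, the desaturase *Fads1* at 57.2 ± 5.22 and *Msmo1*, which removes methyl groups from lanosterol intermediates, at 56.4 ± 13.0 CPM per kilobase. The lowest were *Acaca*, the acetyl-CoA carboxylase that starts fatty acid synthesis, at 4.69 ± 0.69, *Hsd17b7*, a ketosteroid reductase of the sterol pathway, at 4.17 ± 2.03, and the stearoyl-CoA desaturase *Scd1* at 0.977 ± 0.521 CPM per kilobase. The related desaturase *Scd2* stood at 53.4 ± 5.40, so the HSCs carried mostly *Scd2* of the pair. Between neighbours in the order of the 37 genes, 2 of 36 steps were larger than the SDs of the pair added together, the one below *Srebf2* and the one above *Scd1*. All other neighbours overlapped within their spread.

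**Figure D1:**
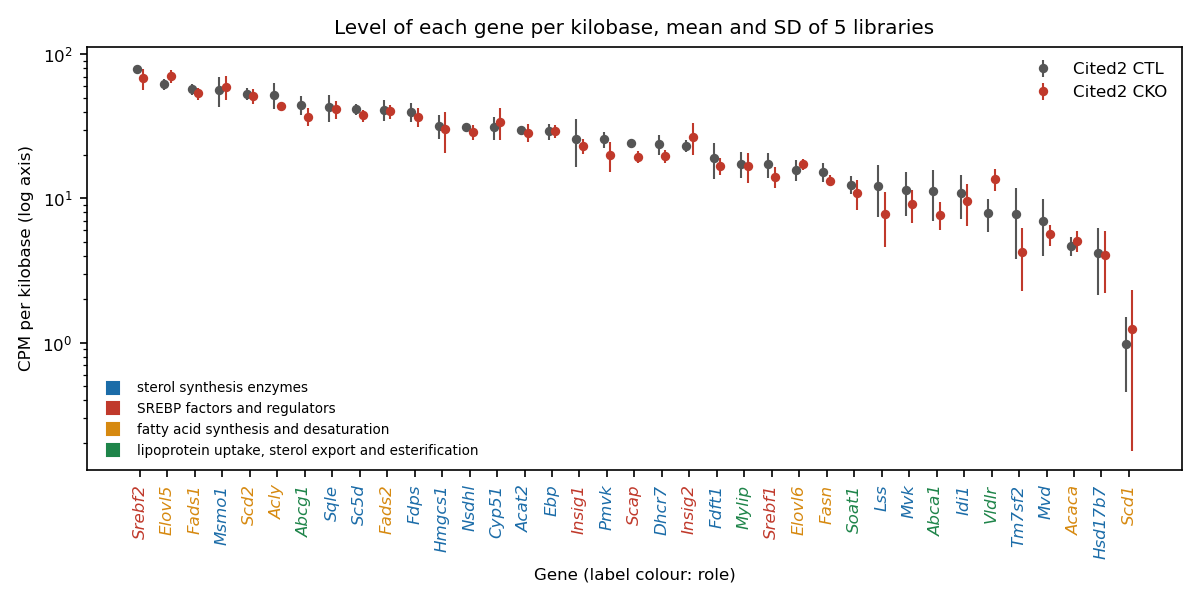
Levels of the 37 genes in order of their *Cited2* CTL mean, in CPM per kilobase of gene length on a log axis, with points for the mean and bars for the SD of 5 libraries in each genotype. *Srebf2* leads at 79.1 and *Scd1* is lowest at 0.977 CPM per kilobase, and most neighbours overlap.

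The comparison of the genotypes asked whether loss of *Cited2* altered these genes in HSCs. None of the 37 members passed an adjusted p of 0.05 with a fold change above 20% (edgeR quasi-likelihood F test, Benjamini-Hochberg), beside 0.226% of all tested genes (32 of 14165, with 0.12% called higher and 0.106% called lower). DESeq2's Wald test called 1 member, *Vldlr*, beside 2.6% of the genes to which it gave an adjusted p. That call was of a higher level, as for 1.18% of those genes, and no member was called lower, beside 1.41%. An unadjusted p under 0.05 was reached by 6 members (16.2%), beside 12.9% of tested genes. Of these, *Elovl5* and *Vldlr* were higher in *Cited2* CKO (5.41% of members, beside 5.8% of tested genes), and *Scap*, *Acly*, *Abca1* and *Abcg1* were lower (10.8%, beside 7.08%). The libraries of the genotypes did not overlap for 1 member, *Scap* (2.7%), beside 3.33% of tested genes. It was lower in *Cited2* CKO, as were 1.98% of tested genes without overlap, and no member was higher without overlap, beside 1.35%.

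The estimates leaned to lower values. The log2 fold change was below 0 for 29 of 37 members (78.4%), beside 49.0% of tested genes, and above 0 for 8 (21.6%), beside 51.0%. The median was -0.13, beside 0.01 over all tested genes. Without *Cited2* CKO 3 the count was 28 of 37 and the median -0.15. Beside it, 7096 tested genes were below 0 and 7052 above, with a median of -0.0012. In that fit 1 member was higher and 5 were lower at an unadjusted p under 0.05. Without *Cited2* CTL 1 the number of members above 0 rose from 8 to 13, the median was -0.08, and 2 members were lower at an unadjusted p under 0.05. Shares of all tested genes are not given here for that fit, nor for the unadjusted p-values without *Cited2* CKO 3. With an offset for each library's dependence on GC content and gene length, 28 of 37 were below 0 with a median of -0.07, and 9 (24.3%) were above 0, beside 48.6% of tested genes. The median shift was smallest with the offset among these fits. As these are bulk libraries, less RNA of a gene per cell and fewer cells that express it cannot be told apart.

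**Figure D2:**
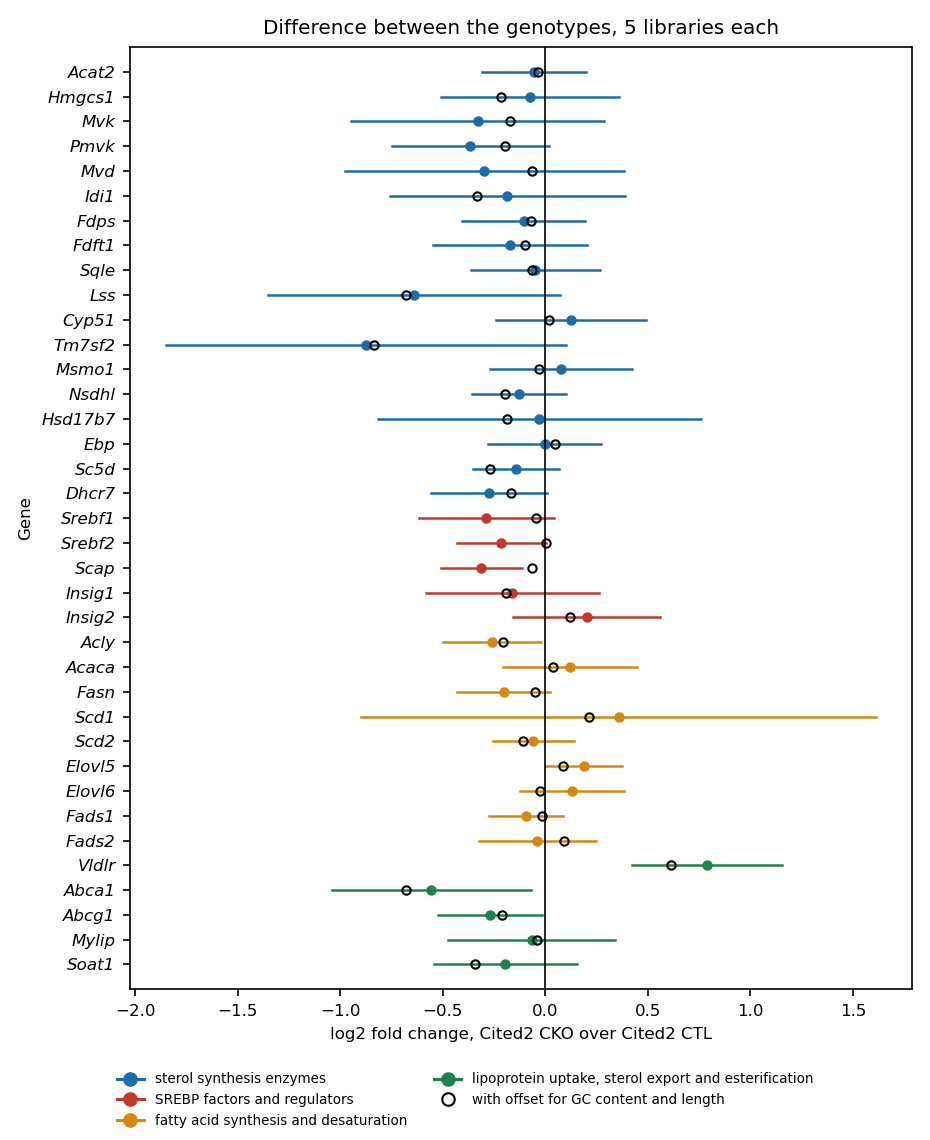
Log2 fold change of each gene in *Cited2* CKO over *Cited2* CTL HSCs (x axis), coloured by role, with 95% confidence intervals from edgeR's quasi-likelihood fit (n = 5 per genotype) and open circles for the offset fit. Of the 37 filled points, 29 lie below 0 and *Vldlr*, at 0.79, lies farthest above it.

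Among the 18 sterol synthesis enzymes, 16 had estimates below 0 and none reached an unadjusted p of 0.05. Without *Cited2* CKO 3, 15 of 18 were below 0, and *Pmvk* (-0.45, unadjusted p = 0.0318) and *Tm7sf2* (-1.10, unadjusted p = 0.0405) passed that level in the edgeR fit, with adjusted p-values of 0.373 and 0.410. The median log2 fold change of the 18 enzymes was -0.14, and it was -0.17 with the offset. The 2 estimates above 0 were those of *Cyp51*, the demethylase of lanosterol (0.13, 95% interval -0.24 to 0.49), and *Msmo1* (0.08, interval -0.27 to 0.42, but -0.03 with the offset). The estimates farthest below 0 were those of *Tm7sf2*, a sterol reductase, at -0.87 (interval -1.85 to 0.10), and *Lss*, the lanosterol synthase, at -0.64 (interval -1.35 to 0.07). Adjusted p-values were 0.443 and 0.441 (edgeR quasi-likelihood F test, Benjamini-Hochberg). The values of both genes ranged widely between mice. *Lss* was measured at 60.5, 23.2, 37.9, 42.2 and 26.3 CPM in *Cited2* CTL 1 to 5 and at 21.2, 33.1, 30.5, 28.5 and 8.30 CPM in *Cited2* CKO 1 to 5. *Tm7sf2* was measured at 19.7, 5.81, 11.2, 6.09 and 14.9 CPM in the controls and at 5.47, 2.23, 9.93, 7.94 and 5.76 CPM in the *Cited2* CKO libraries. For both genes the groups overlapped, and the highest library was *Cited2* CTL 1. *Tm7sf2* had 9 to 68 counts per library and shares exon bases with *Vps51* on the same strand. *Lss* shares exon bases with 4930483K19Rik on the opposite strand. Of the 18 enzymes, 7 share exon bases with another gene.

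*Msmo1* has the highest level per kilobase of the sterol enzymes. Its values were 137, 80.6, 116, 95.8 and 84.5 CPM in *Cited2* CTL 1 to 5 and 90.8, 131, 125, 111 and 83.2 CPM in *Cited2* CKO 1 to 5, so the genotypes covered the same range. Enzymes at other steps of the pathway overlapped as well. *Hmgcs1* was measured at 105 ± 20.5 CPM in controls and 99.3 ± 31.9 CPM in *Cited2* CKO, with a log2 fold change of -0.07 and an interval from -0.51 to 0.36. *Sqle*, the squalene epoxidase that commits squalene to sterols, stood at 119 ± 24.9 and 115 ± 16.7 CPM, with -0.05 and an interval from -0.36 to 0.26. *Ebp*, a sterol isomerase, differed least, at 50.9 ± 6.40 and 50.8 ± 5.20 CPM (SD, n = 5 in each).

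*Pmvk* and *Dhcr7* came closest to the unadjusted threshold among the sterol enzymes with all 10 libraries. *Pmvk*, the kinase that phosphorylates phosphomevalonate, was measured at 38.6 ± 4.69 CPM in controls and 30.0 ± 6.91 CPM in *Cited2* CKO, with a log2 fold change of -0.37 (SE 0.18) and an adjusted p of 0.409 (edgeR quasi-likelihood F test, Benjamini-Hochberg). *Dhcr7*, the reductase that makes cholesterol from 7-dehydrocholesterol, was measured at 67.1 ± 11.0 and 55.2 ± 5.68 CPM, with -0.28 (SE 0.13) and an adjusted p of 0.401 by the same test. Neither passed the threshold. *Nsdhl*, a dehydrogenase that acts on methylsterols, was the sterol enzyme with the least spread between control mice, at 69.5 ± 2.1 CPM, and stood at 63.7 ± 7.63 CPM in *Cited2* CKO.

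The enzymes also varied from mouse to mouse as a group. *Cited2* CTL 1 held the highest CPM of all 10 libraries for 13 of the 18 enzymes (72.2%), beside 15.4% of all tested genes, and lay above the gene's median for all 18. *Cited2* CKO 5 held the lowest value for 7 of them (38.9%), beside 15% of tested genes. Summed over the 18 enzymes, *Cited2* CTL libraries 1 to 5 held 1363, 991, 1129, 1033 and 922 CPM, and *Cited2* CKO libraries 1 to 5 held 900, 1120, 1108, 1126 and 835 CPM. The sums averaged 1088 ± 171 and 1018 ± 139 CPM (SD, n = 5), and 3 *Cited2* CKO libraries lay above 3 of the controls. *Cited2* CTL 1 was also the library with the fewest reads, and the part of depth in its position was not tested.

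**Figure D3:**
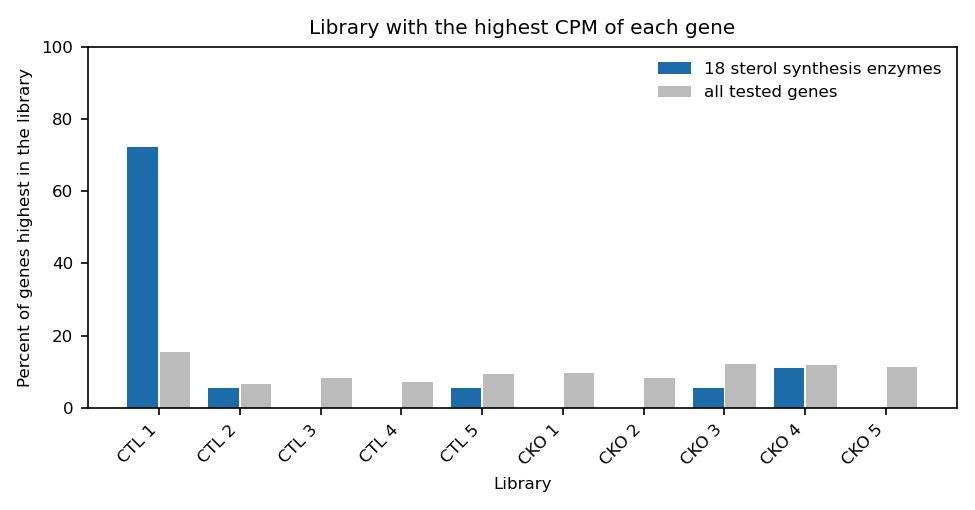
Percent of genes (y axis) whose highest CPM among the 10 libraries fell in each library (x axis), with blue bars for the 18 sterol synthesis enzymes and grey bars for all 14165 tested genes. *Cited2* CTL 1 held the highest value of 72.2% of the enzymes and of 15.4% of tested genes.

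**Figure D4:**
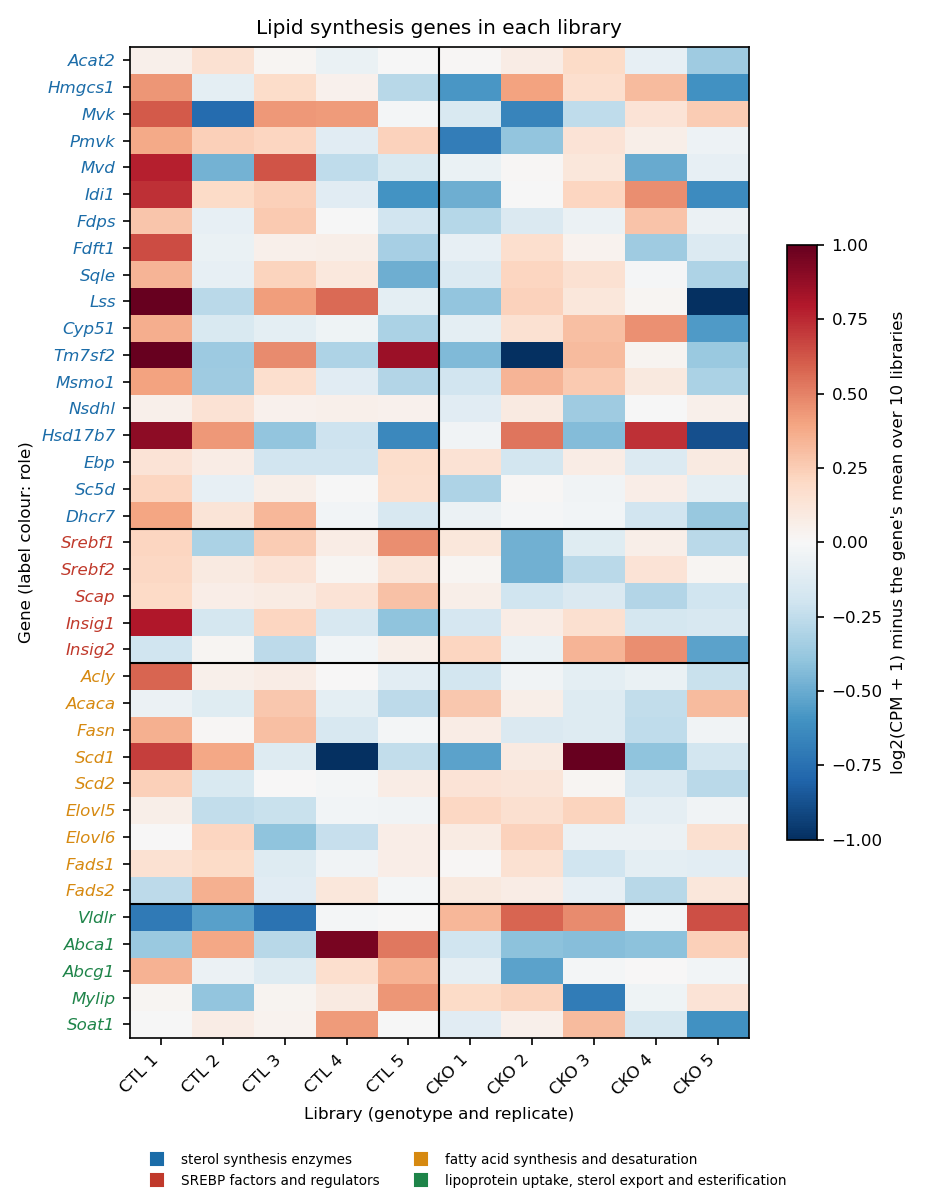
Log2(CPM + 1) of each of the 37 genes (rows, label colours give the role) in each library (columns) minus the gene's mean over the 10 libraries, with red above and blue below the mean and colours ending at 1 in both directions. The sterol enzymes, *Insig1* and *Acly* are red in *Cited2* CTL 1, and *Vldlr* has 4 of 5 *Cited2* CKO libraries above all of its controls.

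Of the 5 genes of the SREBP system, 4 were estimated lower in *Cited2* CKO HSCs, with a median log2 fold change of -0.21, and none was called. Without *Cited2* CKO 3, 4 were lower and the median was -0.22. *Srebf2*, the main activator of sterol synthesis genes, was measured at 384, 355, 366, 339 and 363 CPM in *Cited2* CTL 1 to 5. In *Cited2* CKO 1 to 5 it was at 338, 239, 276, 366 and 338 CPM. Libraries 2 and 3 of *Cited2* CKO lay well below all controls, libraries 1 and 5 stood at the level of the lowest control, and library 4 lay among the controls. This gave a log2 fold change of -0.21 (SE 0.10, adjusted p = 0.393, edgeR quasi-likelihood F test, Benjamini-Hochberg), which became -0.14 without *Cited2* CKO 2 and -0.17 without *Cited2* CKO 3.

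*Scap* gave the cleanest separation of the SREBP genes. Its values were 107, 96.7, 98.2, 102 and 114 CPM in *Cited2* CTL 1 to 5 and 96.3, 80.6, 83.4, 75.6 and 80.4 CPM in *Cited2* CKO 1 to 5. The groups did not overlap, but by a narrow margin, with the lowest control at 96.7 and the highest *Cited2* CKO library at 96.3 CPM, and with DESeq2 size factors they overlapped. The log2 fold change was -0.31 (SE 0.09, adjusted p = 0.172, edgeR quasi-likelihood F test, Benjamini-Hochberg). A two-sided exact permutation test of the CPM of this gene alone gave p = 0.00794, the smallest that 5 against 5 libraries can give and not adjusted for the number of genes. *Scap* lies on chromosome 9 of GRCm38 from 110333288 to 110384950 and shares exon bases with 5830462I19Rik on the opposite strand, and whether reads were counted by strand is not given in the sources used here.

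*Srebf1*, whose product drives lipogenic genes, was measured at 76.9, 53.0, 79.1, 69.7 and 91.7 CPM in the controls and at 71.8, 47.2, 60.7, 69.1 and 54.8 CPM in *Cited2* CKO. These groups overlapped, with a log2 fold change of -0.29 (SE 0.15, adjusted p = 0.460, edgeR quasi-likelihood F test, Benjamini-Hochberg). Its exons share bases with *Rai1* and *Mir6922*. *Srebf1*, *Srebf2* and *Scap* have GC contents of 58.4%, 57.9% and 59.1%, beside a median of 48.8% for tested genes. With the offset the log2 fold changes of these 3 genes were -0.05, 0.0053 and -0.06. The decreases estimated for these genes therefore did not hold under that offset.

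*Insig1*, itself a target of SREBP that rises when sterols are scarce, was measured at 110, 55.8, 73.2, 56.3 and 47.5 CPM in *Cited2* CTL and at 56.1, 66.5, 70.4, 55.9 and 56.2 CPM in *Cited2* CKO. *Cited2* CTL 1 was the highest library and the others lay between 47.5 and 73.2 CPM. Its log2 fold change of -0.16 became 0.06 without *Cited2* CTL 1. *Insig2*, which is not driven by SREBP in the same way, stood at 58.4 ± 5.74 CPM in controls and 67.3 ± 17.1 CPM in *Cited2* CKO (SD, n = 5).

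The 9 genes of fatty acid synthesis and desaturation were nearly balanced, with 5 estimates below and 4 above 0, a median log2 fold change of -0.04 and no call. Without *Cited2* CKO 3, 6 were below 0 and the median was -0.06. *Acly* makes cytosolic acetyl-CoA from citrate, the starting material of both pathways. It was measured at 316, 219, 222, 211 and 196 CPM in *Cited2* CTL 1 to 5 and at 185, 206, 197, 201 and 181 CPM in *Cited2* CKO 1 to 5. *Cited2* CTL 1 stood far above every other library, which lay between 181 and 222 CPM. The log2 fold change was -0.26 (SE 0.11, adjusted p = 0.349, edgeR quasi-likelihood F test, Benjamini-Hochberg) and -0.14 without *Cited2* CTL 1.

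*Elovl5* went the other way. It was measured at 191, 155, 156, 180 and 179 CPM in *Cited2* CTL and at 212, 205, 213, 172 and 179 CPM in *Cited2* CKO, where libraries 1, 2 and 3 lay above all controls. The log2 fold change was 0.19 (SE 0.09, adjusted p = 0.382, edgeR quasi-likelihood F test, Benjamini-Hochberg), 0.16 without *Cited2* CKO 3, and 0.08 with the offset. *Fasn* stood at 153 ± 23.7 and 132 ± 11.5 CPM, *Fads1* at 198 ± 18.1 and 185 ± 17.7 CPM and *Scd2* at 291 ± 29.4 and 279 ± 33.9 CPM in *Cited2* CTL and *Cited2* CKO (SD, n = 5). The mean difference of each was smaller than its SD in the controls. *Scd1* was low, at 1.46 to 8.03 CPM in the controls and 2.85 to 15.1 CPM in *Cited2* CKO, with the highest value in *Cited2* CKO 3. Its log2 fold change of 0.36 had an interval from -0.90 to 1.61 and was -0.33 without that library.

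The 5 genes of uptake, export and esterification had 4 estimates below 0 and a median log2 fold change of -0.20, which became 3 below 0 and -0.30 without *Cited2* CKO 3. Among them was the member with the smallest p. *Vldlr*, the receptor for very-low-density lipoprotein, lies on chromosome 19 from 27216484 to 27254231. It was measured at 51.2, 57.6, 50.3, 83.4 and 84.2 CPM in *Cited2* CTL 1 to 5. In *Cited2* CKO 1 to 5 it was at 106, 127, 117, 83.2 and 132 CPM. Libraries 1, 2, 3 and 5 of *Cited2* CKO lay above every control, and *Cited2* CKO 4 lay just below controls 4 and 5.

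The mean of *Vldlr* was 65.3 ± 17.1 CPM in controls and 113 ± 19.5 CPM in *Cited2* CKO (SD, n = 5), a log2 fold change of 0.79 (SE 0.17, 95% interval 0.42 to 1.15). The unadjusted p was 0.000398, the smallest of the 37, and the adjusted p was 0.0781 (edgeR quasi-likelihood F test, Benjamini-Hochberg). DESeq2 gave a log2 fold change of 0.80 with an adjusted p of 0.00228. A two-sided exact permutation test of the CPM gave p = 0.0238. Leaving out each library in turn kept the log2 fold change between 0.70 and 0.90 with adjusted p-values from 0.0523 to 0.201, and it was 0.78 without *Cited2* CKO 3. Under the GC and length offset it was 0.61 with an adjusted p of 0.592. *Vldlr* was thus higher in *Cited2* CKO in every fit, and whether it passed the threshold depended on the test. For other members with an unadjusted edgeR p under 0.05, the exact permutation test gave p = 0.0317 (*Acly*), 0.0714 (*Elovl5*), 0.0952 (*Abca1*) and 0.111 (*Abcg1*). These permutation p-values, that of *Vldlr* included, were not adjusted for the number of genes.

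*Abca1*, which loads cholesterol onto lipid-poor apolipoproteins, was measured at 71.2, 121, 75.8, 179 and 133 CPM in *Cited2* CTL 1 to 5 and at 80.3, 69.0, 68.3, 69.1 and 109 CPM in *Cited2* CKO 1 to 5. Controls 2, 4 and 5 lay above every *Cited2* CKO library, and controls 1 and 3 lay among them. The log2 fold change was -0.56 (SE 0.23, adjusted p = 0.330, edgeR quasi-likelihood F test, Benjamini-Hochberg) and -0.68 with the offset. Without *Cited2* CTL 4 it was -0.35. *Abcg1*, which passes cholesterol to high-density lipoprotein, was measured at 298, 224, 213, 262 and 297 CPM in the controls and at 220, 161, 230, 233 and 229 CPM in *Cited2* CKO. It was lower by 0.27 on the log2 scale (SE 0.12, adjusted p = 0.361, edgeR quasi-likelihood F test, Benjamini-Hochberg), with 3 controls above all *Cited2* CKO libraries. *Cited2* CTL 1 was thus low among the controls for *Abca1* and high for *Abcg1*. *Cited2* CTL 3 was low among the controls for both genes, and *Cited2* CTL 4 and 5 lay above every *Cited2* CKO library for both. Both genes are targets of the LXR sterol receptors, whose activity was not tested.

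The other members of this role differed less. *Mylip*, a ubiquitin ligase that removes lipoprotein receptors, stood at 52.0 ± 10.8 CPM in controls and 49.7 ± 11.6 CPM in *Cited2* CKO. *Soat1*, which esterifies cholesterol for storage, stood at 59.7 ± 8.29 and 52.2 ± 12.1 CPM (SD, n = 5), with a log2 fold change of -0.20 and, with the offset, of -0.35 at an unadjusted p of 0.0222 and an adjusted p of 0.627 (edgeR quasi-likelihood F test, Benjamini-Hochberg). With that offset 3 members had an unadjusted p under 0.05, *Vldlr*, *Abca1* and *Soat1* (8.11%), beside 6.95% of tested genes. *Vldlr* was higher in *Cited2* CKO, and *Abca1* and *Soat1* were lower. Their adjusted p-values with the offset ranged from 0.592 to 0.708 (edgeR quasi-likelihood F test, Benjamini-Hochberg), so none was called.

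**Figure D5:**
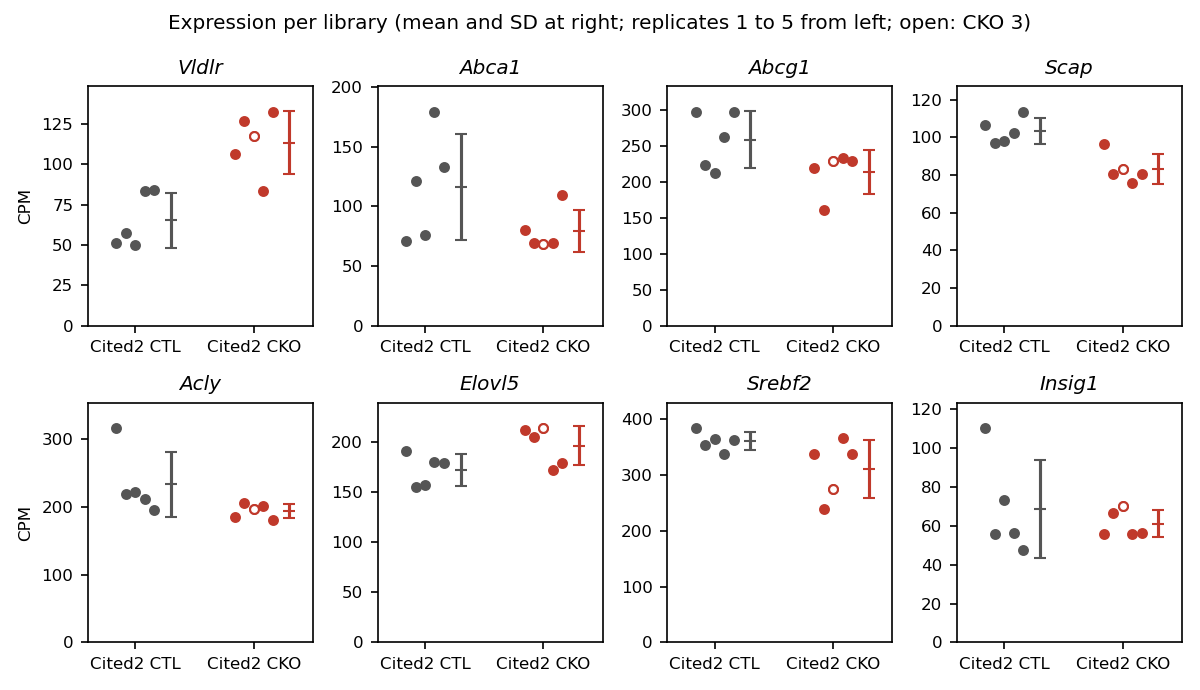
CPM (y axis, from 0) of 8 genes in each library, with grey points for *Cited2* CTL, red points for *Cited2* CKO, an open point for *Cited2* CKO 3, and bars at the right of each group for the mean and SD (n = 5). *Vldlr* is higher in 4 of 5 *Cited2* CKO libraries than in any control, *Scap* does not overlap, and *Acly* and *Insig1* each have 1 high control, *Cited2* CTL 1.

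Other genes of the pathways were described from 2 further lists of 20 genes each. Of 20 genes that process, traffic or sense sterols, none was called, with a median log2 fold change of -0.04. At an unadjusted p under 0.05, 1 was higher and 3 were lower, beside 5.8% and 7.08% of tested genes. *Lrp8*, a receptor of the same family as *Vldlr*, was at 39.9 ± 7.14 CPM in controls and 53.8 ± 12.3 CPM in *Cited2* CKO, with a log2 fold change of 0.43. *Ggps1*, which makes geranylgeranyl diphosphate, stood at 81.2 ± 4.39 and 91.6 ± 10.5 CPM. Their adjusted p-values were 0.334 and 0.489 (edgeR quasi-likelihood F test, Benjamini-Hochberg), so neither difference was called.

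Of 20 further genes of fatty acid synthesis, 19 were tested and none was called, with a median log2 fold change of 0.02. At an unadjusted p under 0.05, 2 were higher and 1 was lower, beside 5.8% and 7.08% of tested genes. *Fads3*, a desaturase relative of *Fads1*, was at 9.11 ± 4.02 CPM in controls and 16.6 ± 1.21 CPM in *Cited2* CKO with a log2 fold change of 0.86. *Hsd17b12*, a reductase of fatty acid elongation, was at 197 ± 6.90 and 225 ± 15.6 CPM with 0.19. *Slc25a1*, the mitochondrial citrate carrier that feeds *Acly*, was at 145 ± 13.3 and 118 ± 12.4 CPM with -0.29, and *Mid1ip1*, an activator of acetyl-CoA carboxylase, at 61.2 ± 5.34 and 53.1 ± 8.42 CPM with -0.21. Their adjusted p-values were 0.262, 0.243, 0.222 and 0.533 (edgeR quasi-likelihood F test, Benjamini-Hochberg). With the offset the estimate for *Fads3* was 0.97 and that for *Slc25a1* was -0.07.

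None of 13 cell cycle genes was called by edgeR, and DESeq2 called 1, *Ccnb1*, a mitotic cyclin, at 83.7 ± 6.83 CPM in controls and 114 ± 11.4 CPM in *Cited2* CKO without overlap (DESeq2 log2 fold change 0.45, adjusted p = 0.00301). Their summed level ranged from 2953 to 3161 CPM in the controls and from 2665 to 3349 CPM in *Cited2* CKO. The summed mature myeloid markers ranged from 273 to 633 CPM and from 281 to 472 CPM, and none of the 5 tested was called. *Cited2* CTL 5 and *Cited2* CKO 5 stood apart, with *Mpo*, the myeloperoxidase of granulocyte precursors, at 190 and 108 CPM beside 6.18 to 20 CPM in the other libraries, and *Elane*, neutrophil elastase, at 62.4 and 16.4 CPM beside 0.758 to 4.87 CPM. These 2 libraries also held the lowest sterol enzyme sum of their genotype. Without *Cited2* CTL 5, 10 of the 37 lipid genes had estimates above 0 with a median of -0.17, and without *Cited2* CKO 5, 12 did with a median of -0.11. The 5 multipotent progenitor markers, *Cd48* included, summed to 637 to 748 CPM in the controls and 623 to 714 CPM in *Cited2* CKO. *Cd34*, at 390 ± 25.9 and 380 ± 25.7 CPM, held the largest part, so the sum does not show single genes. By gene, 2 were estimated higher, *Cd48* among them, and 3 lower. *Flt3* was lower, at 123 ± 18.5 and 96.0 ± 8.05 CPM (log2 fold change -0.36, adjusted p = 0.194, edgeR quasi-likelihood F test, Benjamini-Hochberg). The part of these lists in the results for the lipid genes was not tested.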

How the data were processed

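RNA-seq counts from LSK CD48-CD150+ HSCs of 5 *Cited2* CTL and 5 *Cited2* CKO mice were used. Single-ended reads had been mapped by the authors to GRCm38 (HISAT2 2.1.0) and assigned to genes (Rsubread 2.0.1), and the deposited values are raw counts for each gene symbol, without normalization, beside a file of gene lengths. The annotation, the strand setting and the handling of duplicates and reads with several matches are not given in the sources used here. Groups and replicate numbers were taken from the labels.

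Genotypes were compared with edgeR 4.0.16 under R 4.3.3 (filterByExpr, TMM scaling, quasi-likelihood F test with robust dispersion, Benjamini-Hochberg adjustment over all 14165 tested genes). A gene was called at an adjusted p under 0.05 and a fold change above 20%, the thresholds of the study. DESeq2 1.42.0 and limma-voom (limma 3.58.1) were alternatives. The offset was a loess fit per library (span 50%) on GC content and log2 gene length. GC content and gene positions came from GENCODE vM21, and promoters from RefSeq. Scripts were tested on simulated data. Totals of 3058690 to 4548795 counts limit the precision of low genes. The p-values measure the spread between mice.

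The 37 members and the further gene lists were chosen with earlier results of these data known. Values in every library were given for members with an unadjusted p under 0.05 or without overlap, the highest per kilobase in each role, *Srebf1*, *Srebf2*, *Insig1* and *Vldlr*. Group means were given from the other lists for the 2 genes with the smallest p in each direction, except that the genes lower in the sterol list are not reported here. *Lss* and *Tm7sf2* were added after their values were seen.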

Additional observations from a re-analysis of the deposited data

Results flagged for a closer look

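A library was marked where it lay far from the other 4 of its genotype relative to the range of the group (Dixon's ratio). Of the 74 groups formed by 37 genes and 2 genotypes, 5 were marked, and a rate of 1 in 20 gives 3.7 by chance. *Nsdhl* was high in *Cited2* CTL 2 at 73.3 CPM, *Acly* in *Cited2* CTL 1 at 316 CPM and *Soat1* in *Cited2* CTL 4 at 74.3 CPM. *Scd1* was high in *Cited2* CKO 3 at 15.1 CPM, and *Abcg1* was low in *Cited2* CKO 2 at 161 CPM. *Cited2* itself was high in the library labelled *Cited2* CKO 3 at 120 CPM, with the next *Cited2* CKO library at 8.30 CPM. None of the 18 sterol enzymes was marked for *Cited2* CTL 1.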

How the results depend on the processing

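No member was called under limma-voom, DESeq2 size factors in edgeR, another filter on low counts, the replicate block, the offset, no fold change threshold or without any 1 library. *Vldlr* was called with DESeq2 and at an adjusted p of 0.1, 1 member in each case. Over all genes the calls, 17 higher and 15 lower, became 148 and 177 with DESeq2, 53 and 74 at an adjusted p of 0.1, 5 and 3 with the offset, and 9 and 3 with the offset and replicate block. Members with an unadjusted p under 0.05, 2 higher and 4 lower, became 1 and 8 without the filter on low counts. They became 1 and 2 with the offset, and 1 and 3 with the offset and replicate block. With DESeq2 size factors 0 members did not overlap. Shares of all tested genes beside these member counts are not given here, apart from 6.95% in either direction with the offset. The cause of these changes was not tested.

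Same-numbered mice correlated in their deviations from -0.09 to 0.21, with 2 of 5 pairs above 0.1. Mice with different numbers correlated from -0.31 to 0.24. The labels do not state a pairing, and these correlations cannot decide whether the mice were paired. With the replicate block 9 genes were called lower, and 1 member was higher and 8 lower at an unadjusted p under 0.05. The share of all tested genes at that level is not given here for this fit. *Msmo1* turned to -0.032 with the offset and -0.018 with the offset and replicate block, and *Srebf2* to 0.0053 with the offset.

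Without 1 library at a time, calls over all genes ranged from 5 to 27 higher and 3 to 18 lower, the most higher without *Cited2* CKO 3. Members at an unadjusted p under 0.05 ranged from 1 to 3 higher and from 2 to 7 lower. Those with estimates above 0 ranged from 8 to 13, the most without *Cited2* CTL 1. Members without overlap ranged from 1 to 3, the most without *Cited2* CKO 4, and fewer libraries make separation easier for any gene. Shares of all tested genes for the unadjusted p and for overlap are not given here for these fits. *Msmo1* ranged from -0.0059 to 0.19, below 0 without *Cited2* CTL 2 or *Cited2* CKO 2, and *Insig1* from -0.27 to 0.065, above 0 without *Cited2* CTL 1. Of 180 log2 fold changes of 10 members under alternatives, 6 changed sign and 1, that of *Vldlr* with DESeq2, crossed the threshold. Without division by gene length *Msmo1* ranked 13 among the members, *Elovl5* 6 and *Abcg1* 3. The number of mice and the depth limit what could be detected, most for low genes such as *Scd1*.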
